A study of Mus musculus with 39 samples.

Results

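The intraflagellar transport (IFT) and Bardet-Biedl syndrome (BBS) genes were read out cell by cell in mouse testis. The set holds every symbol in the feature list that starts with Ift or Bbs followed by a digit, which gave 23 of 32285 genes and used no expression value. By role, 11 encode IFT-B subunits, 3 IFT-A subunits, 6 BBSome subunits and 2 chaperonin-like BBS proteins, and 1 is the antisense transcript Ift88os. Subunits under other names (such as Ttc30a2 or Bbip1) fall outside the symbol rule and are given as separate lists.

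IFT trains are polymers of the IFT-B and IFT-A complexes that kinesin-2 and cytoplasmic dynein-2 pull along the axoneme of cilia and flagella. IFT-B is mainly tied to transport towards the tip and IFT-A to the return and to entry of membrane proteins, while the BBSome is an octameric cargo adaptor that rides on the trains and is assembled with the help of the chaperonin-like BBS proteins. In the testis the sperm flagellum grows out from round spermatids, and mice lacking IFT subunits in male germ cells make few or malformed sperm tails.

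Gene coordinates are those of RefSeq on GRCm38.p6. Whole testes of 2 kinds of mice were dissociated and sequenced as 1 single-cell library each. The control carried a floxed Kdm6a allele on its single X chromosome and no Cre (Kdm6a fl/y; Cre-). The conditional knockout (cKO) carried the same allele with a Cre driven by Ddx4, a gene of the germ line (Kdm6a fl/y; Ddx4-Cre+). Kdm6a, also called Utx, encodes an H3K27 demethylase. ATAC-seq and H3K27me3 CUT&Tag of cKIT+ spermatogonia from control and cKO mice served for the promoters. With 1 library per genotype no difference between the genotypes can be tested, how many animals went into each library was not given in the sources used here, and the intervals below (exact, 95%) cover counting error only.

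The 3000-UMI minimum kept 11252 control and 8520 cKO barcodes, with a median of 8410.5 and 8499 UMIs (unique molecular identifiers, 1 per captured transcript). Levels are given as CPM, the UMIs of a gene in 1000000 UMIs of the class. Each tag marks 1 transcript 3' end, so genes were compared without dividing by length. Barcodes were gated by summed marker genes into 5 germ-cell and 2 somatic classes, and the class names below stand for such marker-gated, "-like" cells: spermatogonia (107 control and 123 cKO), early meiotic prophase (299 and 108), pachytene and later spermatocytes (2347 and 1862), round spermatids (1736 and 1751), elongating spermatids (5484 and 3818), Leydig (89 and 86) and Sertoli (103 and 123). In all, 9.54% of control and 7.45% of cKO barcodes stayed unassigned. In 927 and 543 barcodes the lead over the next-best score was between the required margin and double it, whether assigned or not. Median scores on the class's own list ran from 0.44 to 0.83, and the highest median on another class's list was 0.28 (pachytene markers in round spermatids). Droplets held free RNA: in the spermatogonia, early prophase, Leydig and Sertoli classes, protamine transcripts (Prm1 and Prm2), which belong to late spermatids, stood at 19.7% to 43.6% of their level in near-empty droplets. In the Sertoli class the median mitochondrial share of UMIs was 15.9% in the control and 18.2% in the cKO. The libraries had 30 barcodes in common, all of which were kept.

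Kdm6a itself gave 90 UMIs (65.2 CPM) in control early prophase cells and 4 UMIs (8.06 CPM) in cKO ones, a log2 ratio of -3.02 (-4.92 to -1.61). In spermatogonia it gave 11 and 7 UMIs, and in Sertoli cells, which the Cre does not target, 13 and 20. Tags lying outside the deleted part of the gene can still be counted, and no other class of either library had more than 47 UMIs of the gene.

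Upstream sequences (250 bases before the RefSeq start, gene strand, GRCm38.p6) are shown for the 3 members with a match to the X-box form searched. The X-box is the palindromic site bound by RFX factors at ciliary genes. Also shown are 3 members with distinct profiles and no such match, Ift172 (highest in elongating spermatids), Ift20 (highest in Leydig cells) and Ift43 (highest in round spermatids). Capitals mark matches on either strand to the X-box searched, which reads GTNNCC, any 2 bases, GGNNAC (N is any base). The start used for a window can lie inside the gene span given below. The Ift172 stretch lies wholly within its gene span and the Bbs7 stretch in part. The windows are chr3:36613390-36613639 on the minus strand for Bbs7, chr5:136907900-136908149 on the plus strand for Ift22, chr16:49699044-49699293 on the plus strand for Ift57, chr5:31291115-31291364 on the minus strand for Ift172, chr11:78536111-78536360 on the plus strand for Ift20 and chr12:86082311-86082560 on the plus strand for Ift43.
Bbs7: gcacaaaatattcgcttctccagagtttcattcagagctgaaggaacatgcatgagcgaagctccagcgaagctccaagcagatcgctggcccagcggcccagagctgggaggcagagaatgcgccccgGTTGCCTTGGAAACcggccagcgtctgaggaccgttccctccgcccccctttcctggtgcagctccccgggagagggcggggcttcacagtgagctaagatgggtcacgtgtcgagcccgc
Ift22: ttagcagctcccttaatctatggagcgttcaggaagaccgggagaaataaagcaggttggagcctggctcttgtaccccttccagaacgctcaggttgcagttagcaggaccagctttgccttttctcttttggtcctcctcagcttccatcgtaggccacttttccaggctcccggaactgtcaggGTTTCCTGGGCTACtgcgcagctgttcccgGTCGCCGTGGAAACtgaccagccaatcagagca
Ift57: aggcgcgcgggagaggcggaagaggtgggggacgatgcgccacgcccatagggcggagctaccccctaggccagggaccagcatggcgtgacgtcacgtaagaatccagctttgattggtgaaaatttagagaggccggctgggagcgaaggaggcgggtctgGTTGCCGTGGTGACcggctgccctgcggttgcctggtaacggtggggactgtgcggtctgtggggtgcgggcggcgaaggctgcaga
Ift172: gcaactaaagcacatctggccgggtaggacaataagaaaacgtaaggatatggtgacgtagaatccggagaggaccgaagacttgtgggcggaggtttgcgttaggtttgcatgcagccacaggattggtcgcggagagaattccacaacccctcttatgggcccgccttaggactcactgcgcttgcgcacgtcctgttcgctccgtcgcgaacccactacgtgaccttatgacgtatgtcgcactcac
Ift20: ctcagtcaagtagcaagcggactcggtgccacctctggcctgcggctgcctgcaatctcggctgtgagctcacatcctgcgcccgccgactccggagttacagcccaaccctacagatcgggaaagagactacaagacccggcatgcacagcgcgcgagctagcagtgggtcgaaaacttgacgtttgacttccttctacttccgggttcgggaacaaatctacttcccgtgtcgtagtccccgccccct
Ift43: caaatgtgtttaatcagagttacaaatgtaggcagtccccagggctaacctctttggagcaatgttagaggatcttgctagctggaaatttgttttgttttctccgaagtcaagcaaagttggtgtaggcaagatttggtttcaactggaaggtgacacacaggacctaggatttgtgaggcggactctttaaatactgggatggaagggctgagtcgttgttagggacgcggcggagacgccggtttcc

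RefSeq windows existed for 19 of the 23 members (not for Ift80, Ift81, Ift122 and Ift88os). The upstream stretches of Ift74, Ift46, Bbs2 and Bbs5 also lay inside their gene spans. The X-box in the form searched was found in 3 of 19 member windows and in 1.66% of 24834 windows. Ift22, which encodes a small GTPase-like subunit of IFT-B, held 2 matches whose last bases lay 50 and 20 bases before the start. The shorter X-box site GTTGCC was found in 4 of 19 (Bbs7, Ift140, Ift27 and Ift57) against 10.4% of all windows. It overlaps the X-box in Bbs7 and at 1 of the 2 sites in Ift57, the other lying outside the marked letters. At that other site GTTGCC is followed by 1 base and GGTAAC, the X-box letters with 1 base in place of 2 between them. Spacings other than 2 bases were not searched. The cAMP response element TGACGTCA was found in Ift57 alone against 1.83% of all windows. Of the 28 windows of genes under other names, motors and transcription factors, 3 held the X-box (Ttc26, Ttc30a2 and Wdr19). These are matches of letters and not measured binding sites.

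Member promoters were mostly open in cKIT+ spermatogonia. An ATAC peak deposited by the authors overlapped the 300-base window (250 bases before to 50 after the start) in all 5 libraries at 14 of 19 members, or 73.7%, against 27.2% of all windows. The other 5 members had a peak in 4 libraries (Bbs4 and Bbs5), 3 (Ift22 and Ift43) or 2 (Bbs1). By library the counts were 18 and 19 of 19 in the controls, against 38.2% and 46.9% of all windows, and 14, 16 and 19 of 19 in the cKO, against 29.3%, 35.8% and 49.8%. The share of all windows was thus also lowest in cKO 1 and cKO 2. Ift22 and Ift43 had no peak in cKO 1 and cKO 2, and Bbs1 had none in these and in control 1. These 3 libraries had the fewest peaks in all (14635 in cKO 1, 18883 in cKO 2 and 19118 in control 1), against 33250 in control 2 and 40497 in cKO 3, which held all 19. The part of the peak number in the missing calls was not tested. At the Ift172 window the authors' fold enrichment was 5.38 and 7.79 in the controls and 4.94, 7.77 and 6.57 in the cKO. At the Ift43 window it was 3.01 and 3.53 in the controls and 4.16 in cKO 3.

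**Figure D1:**
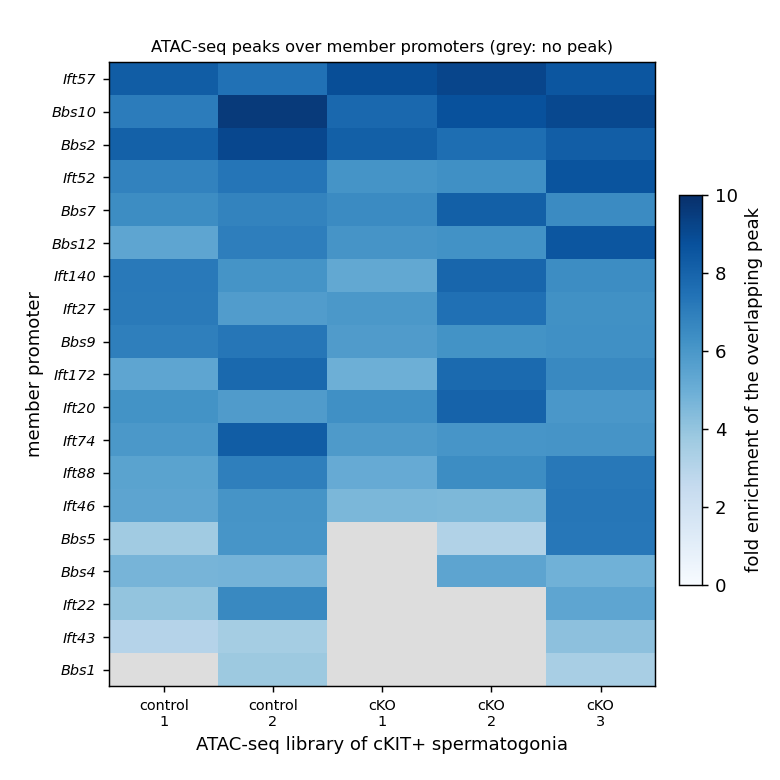
Fold enrichment of the authors' ATAC-seq peak over each of 19 member promoters (rows, ordered by mean over libraries) in 2 control and 3 cKO libraries of cKIT+ spermatogonia (columns). The 14 upper rows have a peak in all 5 libraries, and the grey cells, where no peak was called, lie in the 5 lower rows.

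No H3K27me3 region overlapped any of the 19 member windows in any of the 2 control and 3 cKO CUT&Tag libraries. Of all windows 83.9% likewise had none in any of the 5, and 5.46% to 12.8% had one, depending on the library. The mark that KDM6A removes was thus not called at these promoters in spermatogonia of either genotype, and the other stages were not profiled.

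The member transcripts together made up 950 CPM (884 to 1020) of control spermatogonia and 917 (852 to 986) of cKO spermatogonia. They stood at 1652 and 1569 CPM in early prophase and at 2839 (2824 to 2854) and 2780 (2762 to 2798) in pachytene and later spermatocytes, the highest class in both libraries. In round spermatids the sum was 2346 and 2304 CPM, and in elongating spermatids 1550 and 1538. Both libraries thus gave the same order of stages. In the cKO the interval of early prophase (1461 to 1683) held that of elongating spermatids (1524 to 1552). Their order there is not settled by counting error. On UMIs per cell the sum was also highest in pachytene cells, with 57.8 and 49.1 member UMIs per cell, followed by round spermatids with 37.8 and 37.1. Elongating spermatids (12.4 and 11.5) were then above early prophase (7.63 and 7.21). Leydig cells held 1004 and 973 CPM and Sertoli cells 1219 and 1136. After free-RNA subtraction and rescaling to the full total, the levels were 820 and 794 in Leydig cells and 1002 and 794 in Sertoli cells.

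**Figure D2:**
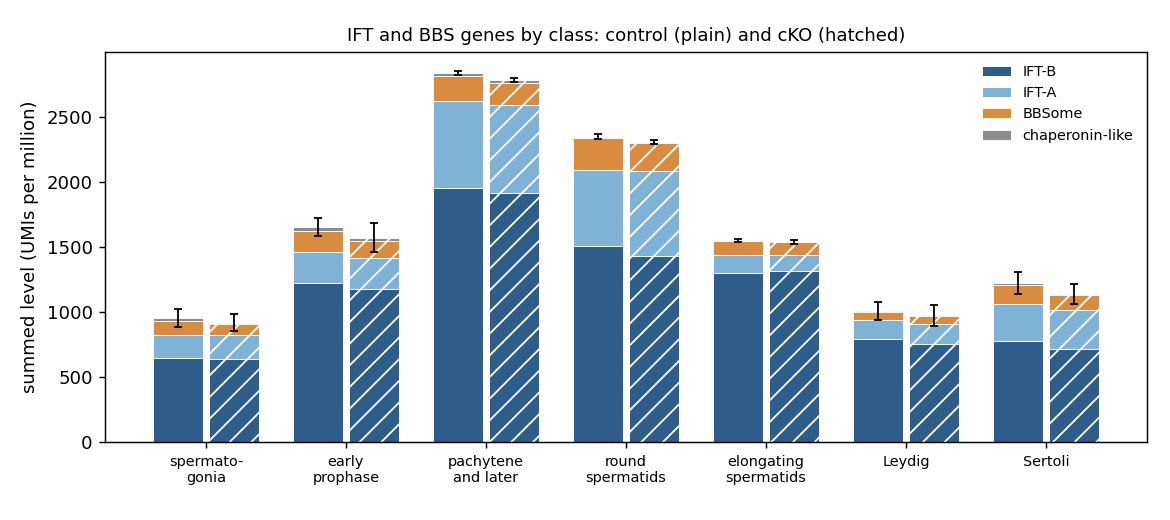
Summed level of the members (y axis, CPM) in 7 cell classes, control in plain bars and cKO in hatched bars, stacked by role; error bars are exact 95% counting intervals of the sum. Both libraries are highest in pachytene and later spermatocytes (2839 and 2780), and IFT-B makes up the largest part of each bar.

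IFT-B transcripts made up 62.1% to 85.7% of member UMIs in every class and library. The IFT-A share was highest in round spermatids (25.03% in the control, 28.2% in the cKO) and lowest in elongating spermatids (8.94% and 7.95%). In CPM the IFT-A sum was higher in pachytene cells (667 and 673) than in round spermatids (587 and 649). Ift43 alone stood at 476 and 555 CPM in round spermatids, so the share there is largely that of this gene. The 6 BBSome members made up 5.91% to 11.9%, and the chaperonin-like Bbs10 and Bbs12 at most 1.83%. In every class the shares of the libraries lay within a few percentage points of each other.

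Among the 5 germ-cell stages, 12 of the 22 members with more than 3 UMIs were highest in pachytene and later spermatocytes in the control library and 13 in the cKO, the 13th being Bbs2. Of the 18786 genes with at least 50 UMIs over the classes, 20.4% and 19.4% were highest at this stage. Over all 7 classes it was 10 of 22 members in each library, against 16.8% and 15.7% of those genes, since Ift20 was highest in Leydig cells, and Bbs9 and, in the cKO, Bbs4 in Sertoli cells. Ift52, Ift81, Ift88 and Bbs1 were highest in early prophase, Ift43, Ift57 and Bbs5 in round spermatids, Ift172 in elongating spermatids and Bbs12 in spermatogonia, in both libraries. The placing in early prophase depended on the setting: on UMIs per cell none of the 4 stayed there (Ift81 was then highest in round spermatids and the other 3 in pachytene cells), and with Leiden clusters in place of the gate Ift52 alone stayed, in the cKO. Bbs12 also left spermatogonia on UMIs per cell, with 0.0818 and 0.0822 UMIs per round spermatid against 0.0561 and 0.0569 per spermatogonium. The highest stage of Ift172, Ift43, Ift57 and Bbs5 was the same in all 12 settings run, the main one included. Ift88os had 3 UMIs in all classes of the control library and 0 in the cKO, a count that allows up to 0.0325 CPM.

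**Figure D3:**
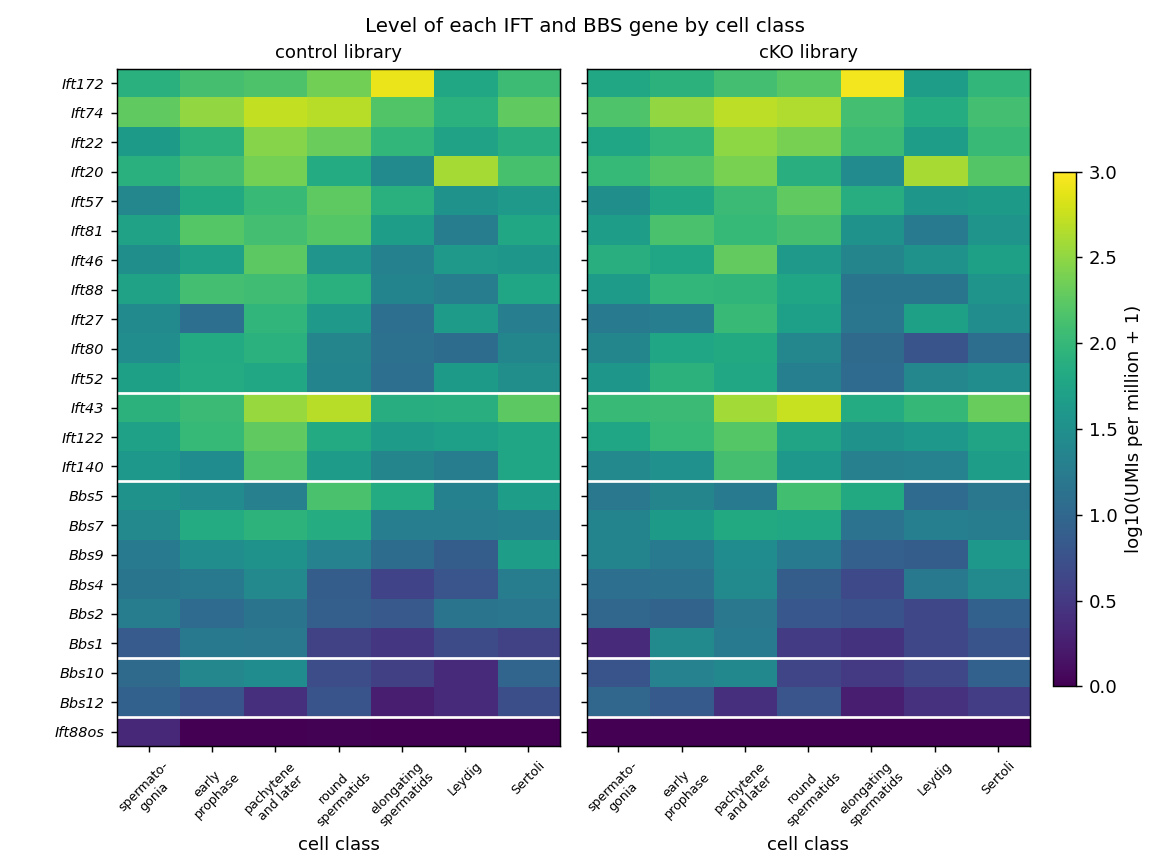
Level of each of the 23 members (rows, ordered by role and within a role by UMIs, white lines between roles) in 7 classes (columns), as log10(CPM + 1), control left and cKO right. Ift172 is brightest in elongating spermatids and Ift20 in Leydig cells, while 10 rows in each library are brightest in pachytene and later spermatocytes.

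From spermatogonia to early meiotic prophase, 5 of 18 members with at least 50 UMIs were 2-fold or more higher in both libraries (Ift57, Ift80, Ift81, Ift88 and Bbs10), against 9.55% of all genes. Bbs10 rested on few counts, with 0.0748 UMIs per control and 0.0325 per cKO spermatogonium. Ift57 passed in the cKO at a fold of 2.004, close to the cut. None was 2-fold lower, against 9.83%. The median log2 difference of members was 0.82 in the control and 0.79 in the cKO, against 0.15 and 0.19 over all genes. The count of 5 was 2 with Leiden clusters in place of the gate and 9 after free-RNA subtraction. In the clusters named for spermatogonia and early prophase, 38.7% and 43.7% of cells were gated to the same class. Protamine transcripts stood at 29851.5 and 34957.7 CPM in the early prophase cluster, against 8927 and 6297 in the gated class. It was also sensitive to how levels were scaled: on UMIs per cell none of the 18 members passed 2-fold in both libraries, against 2.91% of all genes higher and 21.3% lower, and the all-gene medians were -0.55 and -0.30. The median early prophase cell held fewer UMIs than the median spermatogonium (4060 against 7202 in the control).

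Ift81 and Ift74 form a tubulin-binding module within IFT-B, and Ift88 is a core subunit whose loss gives the classic ciliary phenotype. Ift81 stood at 52.2 and 46.5 CPM in spermatogonia, 160 and 137 in early prophase, 126 and 102 in pachytene cells, 160 and 130 in round spermatids and 46.7 and 33.1 in elongating spermatids (control first, here and below). Ift88 stood at 52.2 and 44.0, then 125 and 94.7, 119 and 91.7, 78.8 and 59.3, and 21.8 and 13.8 CPM over the same stages. The highest stage was set by a small margin, against round spermatids for Ift81 and against pachytene cells for Ift88. Ift52, another core subunit, was lower in level: 49.7 and 37.7, then 69.6 and 82.6, 62.2 and 59.5, 21.7 and 18.7, and 11.3 and 10.2 CPM. From pachytene cells to round spermatids the log2 difference was -1.52 and -1.67 for Ift52, -0.60 and -0.63 for Ift88 and 0.34 and 0.35 for Ift81, so the 3 genes differed in course at this step. Bbs1, a BBSome subunit, was rare, with 15.2 and 26.2 CPM in early prophase (21 and 13 UMIs), 14.9 and 15.7 in pachytene cells and at most 6.21 in any other germ-cell class.

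From early prophase to pachytene and later spermatocytes, 5 of 22 members were 2-fold higher (Ift22, Ift27, Ift43, Ift46 and Ift140; background 11.8%) and 1, Bbs12, was 2-fold lower (background 25.5%). The call of Bbs12 rested on few counts, with 0.0234 UMIs per control and 0.0278 per cKO early prophase cell. It was lost with a 5000-UMI minimum and with a doubled score lead, and 2 members were lower with Leiden clusters. The median member difference was 0.36 in the control and 0.65 in the cKO, against -0.31 and 0.00 over all genes. Here a gene under 3 UMIs in 1 class counted as no change where raising it to 3 would have turned its direction. Pachytene cells held several times more UMIs per cell than early prophase cells, and on UMIs per cell 21 of the 22 members were 2-fold higher, against 46.5% of all genes. All genes shifted with them, from a median of -0.51 to 1.63 in the control and from -0.63 to 1.31 in the cKO over genes with a UMI in both classes.

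Ift74 (chr4:94603266-94693233) was the most abundant member in spermatogonia, early prophase and pachytene cells of both libraries. It stood at 185 and 150 CPM in spermatogonia, 329 and 328 in early prophase, 524 and 505 in pachytene cells, 473 and 442 in round spermatids and 153 and 125 in elongating spermatids. Its partner Ift81 was thus at a lower level in each of these classes. Ift22 (chr5:136908150-136914509) stood at 42.2 and 56.5, then 83.3 and 94.7, 283 and 312, 203 and 242, and 95.9 and 109 CPM. It was higher in the cKO library in 6 of 7 classes, Sertoli cells among them, and lower in Leydig cells. In spermatogonia and early prophase these levels lay below that in free RNA (188 and 201 CPM). After free-RNA subtraction the level was 2.03 and 21.2 CPM in spermatogonia and 35.2 and 57.3 in early prophase.

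The IFT-A members differed in course both before and after the pachytene stage. Ift43 (chr12:86082561-86162459), a small peripheral subunit, stood at 84.5 and 103 CPM in spermatogonia, 109 and 111 in early prophase, 339 and 383 in pachytene cells, 476 and 555 in round spermatids and 72.9 and 69.7 in elongating spermatids. In free RNA it stood at 279 and 293 CPM, above its level in both early classes. After free-RNA subtraction the level was 30.6 and 56.6 CPM in spermatogonia and 30.1 and 46.8 in early prophase. Ift122 (chr6:115853379-115926699), a core subunit, stood at 50.9 and 56.5, then 101 and 101, 184 and 162, 67.3 and 55.4, and 43.8 and 33.4 CPM. Ift140 (chr17:25016083-25099499), also a core subunit, stood at 38.5 and 25.1, then 27.5 and 32.2, 143 and 128, 44.3 and 38.4, and 22.0 and 19.1 CPM. The early prophase level of Ift140 was 9.45 and 23.7 CPM after free-RNA subtraction. From pachytene cells to round spermatids the log2 difference was 0.49 and 0.53 for Ift43, against -1.45 and -1.55 for Ift122 and -1.69 and -1.73 for Ift140. Transcripts of subunits of 1 complex therefore did not keep a fixed ratio across these classes.

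From pachytene and later spermatocytes to round spermatids, 10 of 22 members were 2-fold lower (Ift20, Ift27, Ift46, Ift52, Ift80, Ift122, Ift140, Bbs1, Bbs4 and Bbs10; background 32.6%). Only Bbs5 and Bbs12 were 2-fold higher (background 28.8%). The median member difference was -0.83 and -0.96, against -0.30 and -0.28 over all genes. Of the 6 BBSome members, 1 (Bbs5) was 2-fold higher and 2 (Bbs1 and Bbs4) were 2-fold lower. Bbs2, Bbs7 and Bbs9 passed 2-fold in both libraries in neither direction. With so few genes these counts do not stand apart from the shares of all genes.

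Bbs5 (chr2:69646848-69667571), a BBSome subunit with lipid-binding pleckstrin-homology folds, was the most abundant BBSome member over all classes. It stood at 33.5 and 15.1 CPM in spermatogonia, 26.8 and 22.2 in early prophase, 19.0 (17.8 to 20.3) and 16.2 (14.8 to 17.6) in pachytene cells, 136 (132 to 140) and 124 (120 to 128) in round spermatids and 68.5 and 65.0 in elongating spermatids. The log2 difference from pachytene cells to round spermatids was 2.84 and 2.94, and it was 2.44 or more in each of the other settings run, UMIs per cell included. After free-RNA subtraction Bbs5 stood at 26.4 and 5.87 CPM in spermatogonia, 11.7 and 11.4 in early prophase and 11.7 and 9.56 in pachytene cells. The spermatid classes were not corrected for free RNA. In Sertoli cells Bbs5 stood at 45.2 and 15.0 CPM, on 32 and 12 UMIs, below its level in free RNA (59.5 and 52.6 CPM). After free-RNA subtraction the Sertoli level was 38.4 CPM in the control and 0 in the cKO. Bbs7 (chr3:36573142-36613492), a propeller-containing subunit of the BBSome core, stood at 24.8 and 21.4, then 68.9 and 42.3, 86.3 and 65.1, 71.2 and 60.3, and 18.1 and 12.9 CPM. Bbs7 did not share the steep pachytene-to-round difference of Bbs5.

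Bbs9 (chr9:22475559-22888283), a BBSome scaffold subunit, stood at 16.1 and 21.4 CPM in spermatogonia, 28.3 and 16.1 in early prophase, 33.5 and 28.1 in pachytene cells, 20.1 and 16.5 in round spermatids and 10.6 and 7.26 in elongating spermatids. It was highest in Sertoli cells, at 46.6 (32.1 to 65.5) and 38.6 (26.2 to 54.8) CPM, with intervals that overlap or come near those of pachytene cells (31.9 to 35.2 and 26.3 to 29.9). Its order between these classes is thus not settled by counting error. Bbs2, another BBSome subunit, stood at 17.4 and 8.80 CPM in spermatogonia on 14 and 7 UMIs, 10.1 and 8.06 in early prophase, 13.4 and 15.0 in pachytene cells, 7.09 and 5.60 in round spermatids and 5.96 and 4.67 in elongating spermatids. Bbs4, which links the BBSome to centriolar satellites, was between 3.01 and 25.5 CPM in the germ-cell classes.

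Of the chaperonin-like members, Bbs12 had the fewest UMIs of the protein-coding set (498 over both libraries), while Bbs10 had 2561, more than the BBSome members Bbs1 (1567) and Bbs2 (1951). Bbs10 (chr10:111298679-111301736) stood at 9.94 and 5.03 CPM in spermatogonia, 23.2 and 20.1 in early prophase, 27.5 and 24.0 in pachytene cells, 4.15 and 3.26 in round spermatids and 2.74 and 2.21 in elongating spermatids. Bbs12 (chr3:37312547-37321450) stood at 7.45 and 8.80, then 5.07 and 6.04, 1.57 and 1.52, 5.08 and 5.10, and 0.799 and 0.772 CPM. Bbs10 was thus highest at the stage where Bbs12 was low, and from pachytene cells to round spermatids the log2 differences were -2.73 and -2.88 for Bbs10 and 1.69 and 1.75 for Bbs12. In spermatogonia Bbs12 rested on 6 and 7 UMIs.

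From round to elongating spermatids, 11 of 22 members were 2-fold lower (Ift20, Ift22, Ift27, Ift43, Ift57, Ift74, Ift81, Ift88, Ift140, Bbs7 and Bbs12; background 36.6%). A single member, Ift172, was 2-fold higher (background 9.27%). The median member difference was -1.05 and -1.17, against -0.65 and -0.74 over all genes. On UMIs per cell 21 of 22 were 2-fold lower, against 67.6% of all genes, and the all-gene medians moved to -1.66 and -1.85. Protamine transcripts made up 129932 and 144782 CPM of this class, and scaling without the 31 genes that reached 0.5% of UMIs moved the all-gene medians to -0.32 and -0.37. The count of 11 lower members was 8 under that scaling. It was 15 with Leiden clusters and 15 with doublets left out.

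Ift172 (chr5:31253279-31291391), the largest IFT-B subunit, stood at 78.3 and 60.3 CPM in spermatogonia, 129 and 84.6 in early prophase, 146 and 125 in pachytene cells, 227 (221 to 233) and 166 (161 to 171) in round spermatids and 823 (815 to 832) and 881 (870 to 892) in elongating spermatids. After free-RNA subtraction (264 and 204 CPM in free RNA) the level was 26.9 and 25.2 CPM in spermatogonia and 66.8 and 42.8 in early prophase. It alone made up 53.1% of member UMIs in control and 57.3% in cKO elongating spermatids, so the summed level of that class is largely the level of this gene. The log2 difference from round to elongating spermatids was 1.86 and 2.41, and 0.85 and 1.30 on UMIs per cell (3.65 and 2.68 UMIs per round cell, 6.58 and 6.58 per elongating cell), which is under 2-fold in the control. Ift172 was the only member above 0 at this step in both libraries.

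The Ift172 level also varied within the spermatid classes. Across the 7 Leiden clusters named for elongating spermatids it ran from 647 to 1116 CPM in the control and from 673 to 1226 in the cKO. Of the 3 clusters named for round spermatids, it stood at 445 and 422 CPM in the one with the most protamine transcripts (31033 and 28282 CPM) and between 77.6 and 147 in the other 2. The gene next to its 3' end, Krtcap3 (31251670 to 31253202 on chromosome 5), was at 4.79 and 4.17 CPM in elongating spermatids, far below Ift172. In Leydig cells Ift172 stood at 60.5 and 47.4 CPM, and at 4.87 and 2.04 after free-RNA subtraction, so its Leydig level is at background.

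Ift57 (chr16:49699294-49765126), a peripheral IFT-B subunit, was higher at each step up to the round spermatids: 23.6 and 30.2 CPM in spermatogonia, 65.2 and 60.4 in early prophase, 107 and 109 in pachytene cells, 177 and 186 in round spermatids and 78.9 and 72.4 in elongating spermatids. Free RNA held it at 95.6 and 92.4 CPM, and after free-RNA subtraction its level in spermatogonia was 3.69 and 14.9 CPM. The interval of its ratio between the libraries held 0 in each class before the round spermatids. The remaining IFT-B members with no special place in the naming rule were Ift27, Ift46 and Ift80. Ift27, a small GTPase that links IFT-B to the BBSome, ran from 11.4 to 108 CPM over the germ-cell classes and libraries, and its early prophase level of 11.6 and 18.1 CPM came to 0 and 8.77 after free-RNA subtraction. Ift46 ran from 19.6 to 187, and Ift80 from 10.0 to 82.3, all with the highest value in pachytene cells.

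**Figure D4:**
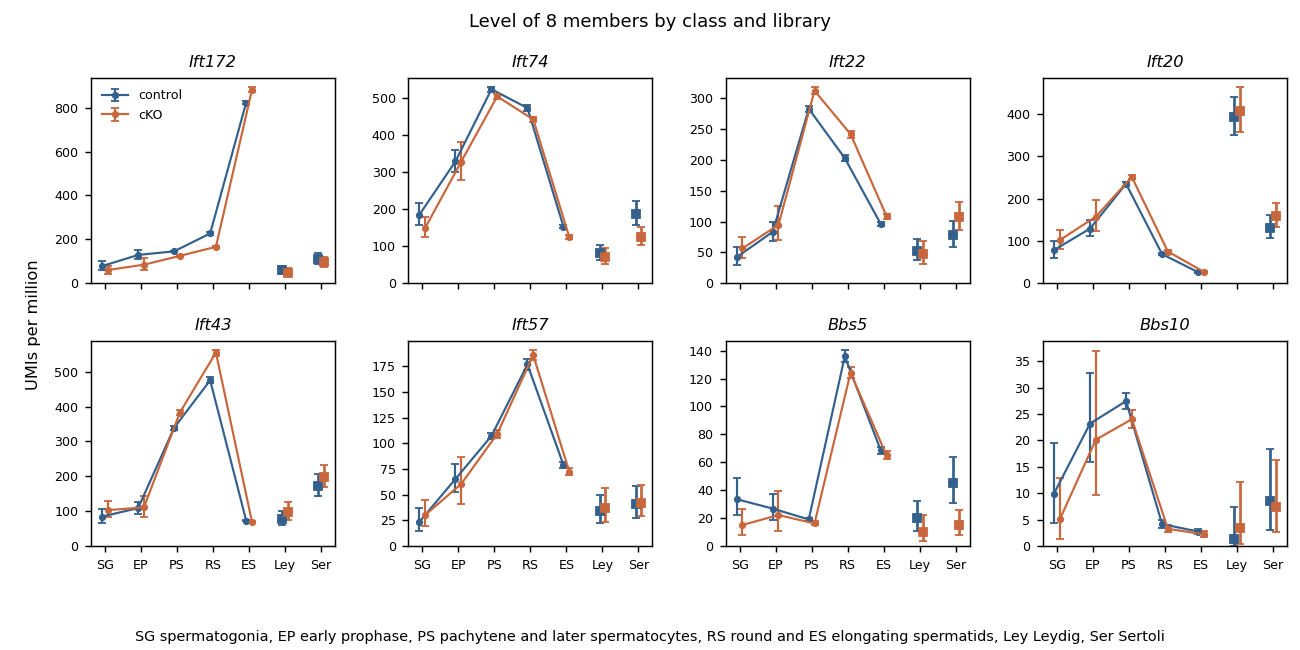
Level of 8 members (y axes, CPM, each starting at 0) in 5 germ-cell classes joined by lines and 2 somatic classes as squares, control in blue and cKO in orange, with exact 95% counting intervals. Ift172 reaches 823 and 881 in elongating spermatids, Ift43, Ift57 and Bbs5 are highest in round spermatids and Ift20 is highest in Leydig cells at 393 and 408.

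Ift20 (chr11:78536361-78541732) encodes an IFT-B subunit that also sits at the Golgi apparatus. In the germ line it stood at 78.3 and 102 CPM in spermatogonia, 129 and 157 in early prophase, 235 and 251 in pachytene cells, 68.8 and 74.9 in round spermatids and 26.1 and 26.98 in elongating spermatids. In Leydig cells it stood at 393 (350 to 440) and 408 (358 to 462) CPM, which was 39.1% and 41.9% of the member UMIs there, and in Sertoli cells at 131 and 158. The Leydig level was above the level in free RNA (111 and 95.9 CPM) in both libraries. Ift20 was highest in Leydig cells in each setting run on the CPM scale when classes were taken whole. Among single Leiden clusters it stood at 321 and 330 CPM in one of the 5 named for pachytene cells, level with 321 and 336 in the Leydig cluster, and at 131 to 319 in the other 4. On UMIs per cell pachytene cells were higher, with 4.77 and 4.43 against 3.36 and 2.80 UMIs per Leydig cell. Its neighbour Tmem97 was at 172 and 139 CPM in Leydig cells and 1003 and 1040 in pachytene cells, an order opposite to that of Ift20. The Leydig class held Sertoli markers at a median score of 0.26 and 0.25, against 0.72 and 0.76 for its own, and their part in the level was not tested.

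The other genes of the pathway, from lists that the symbol rule does not cover, were counted in the same way. From spermatogonia to early prophase 2 of 8 measured IFT genes under other names, 1 of 3 further BBSome genes and partners and 0 of 8 motor genes were 2-fold higher (background 9.55%), with none 2-fold lower (background 9.83%). The next step gave 2 of 10, 1 of 5 and 1 of 9 higher (background 11.8%) and 1 motor gene, Kif17, lower (background 25.5%). From round to elongating spermatids, 8 of 10 IFT genes under other names, 3 of 5 further BBSome genes and partners and 5 of 8 measured motor genes were 2-fold lower and none was 2-fold higher (background 36.6% and 9.27%). From pachytene cells to round spermatids the corresponding lower counts were 5 of 10, 2 of 5 and 4 of 9 (background 32.6%), and 2 motor genes, Kifap3 and Kif17, were 2-fold higher (background 28.8%). Ttc30a2, an IFT-B subunit, stood at 156 and 162 CPM in pachytene cells and 64.1 and 76.5 in round spermatids, and Wdr35, an IFT-A subunit, at 165 and 138 and then 56.8 and 41.6. Lztfl1, which regulates BBSome entry into cilia, stood at 323 and 292 and then 260 and 261 CPM. Bbip1, a small BBSome subunit, stood at 251 and 267 and then 162 and 176. Kifap3, the non-motor subunit of kinesin-2, went the other way, from 105 and 106 to 280 and 293 CPM, while Wdr60, a dynein-2 intermediate chain, stood at 237 and 205 and then 246 and 213.

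Among transcription factors of ciliary genes, Rfx1, Rfx3 and Foxj1 (3 of 5) were 2-fold higher in round spermatids than in pachytene cells (background 28.8%), and Rfx1, Rfx4 and Foxj1 (3 of 5) were 2-fold lower in elongating spermatids (background 36.6%). None of the 3 measured passed 2-fold at entry into early prophase (background 9.55% higher and 9.83% lower), and Rfx3 was 2-fold lower in pachytene cells than in early prophase (1 of 5, background 25.5%). Rfx2, an RFX factor needed for spermiogenesis, was 2-fold higher in pachytene cells than in early prophase (1 of 5, background 11.8%), at 99.7 and 96.6 against 42.8 and 44.3 CPM, and stood at 57.2 and 52.9 in round spermatids. Rfx4 stood at 33.2 and 30.6 CPM in pachytene cells and 49.8 and 45.5 in round spermatids.

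The summed member level was compared between the libraries in each class. The log2 ratio of cKO over control was -0.05 in spermatogonia (-0.20 to 0.10), -0.07 in early prophase (-0.19 to 0.04), -0.03 in pachytene cells (-0.04 to -0.02), -0.03 in round spermatids (-0.04 to -0.01), -0.01 in elongating spermatids (-0.03 to 0.01), -0.05 in Leydig cells (-0.21 to 0.11) and -0.10 in Sertoli cells (-0.24 to 0.03). Its sign turned in 4 classes under other settings: to 0.12 in early prophase and 0.065 in Leydig cells with Leiden clusters, to 0.025 in Leydig cells with cells weighted equally, to 0.0031 in spermatogonia after free-RNA subtraction and to 0.024 in elongating spermatids when scaled without the 31 most abundant genes. It moved away from 0 on UMIs per cell, to -0.36 in Leydig cells, -0.27 in spermatogonia, -0.23 in pachytene cells and -0.11 in elongating spermatids, and after free-RNA subtraction, to -0.34 in Sertoli cells. The median ratio of single members with 50 UMIs was -0.17 in round spermatids against -0.03 over all genes, and -0.17 against -0.04 in Leydig cells (8 members). In the other 5 classes it lay between -0.17 and -0.0069, against -0.14 to -0.04 over all genes, and in early prophase the member median was the nearer to 0. Counting error alone does not place the sums apart in 5 of the 7 classes, and how far 2 libraries of 1 genotype would differ is not known.

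Single members past 1.5-fold between the libraries were few where counts were high. In pachytene cells none of 22 passed (background 6.64%), in round spermatids none of 22 (background 9.05%), and in elongating spermatids 1 of 22 did (background 10.6%), Ift88 with a log2 ratio of -0.67 (-0.84 to -0.50). In spermatogonia 2 of 11 passed (background 12.8%), Ift46 at 29.8 against 74.1 CPM on 24 and 59 UMIs and Ift140 at 38.5 against 25.1 on 31 and 20. In early prophase 2 of 14 passed (background 18.5%), with Bbs7 lower at a log2 ratio of -0.70 (-1.46 to -0.01) and Ift172 lower at -0.61 (-1.13 to -0.12). None of 8 passed in Leydig cells (background 15.2%) and 2 of 12 in Sertoli cells (background 12.8%), Ift81 at -0.80 and Ift88 at -0.70. These shares lie near or below the shares of all genes. The counts depended on the settings. The 1 in elongating spermatids was 0 with a 5000-UMI minimum and 4 with cells weighted equally or on UMIs per cell. In spermatogonia no member passed with Leiden clusters or with 100 UMIs per gene, and 5 passed with 20. In early prophase none passed with a 5000-UMI minimum or a doubled score lead, and 5 passed after free-RNA subtraction. In Sertoli cells none passed with 100 UMIs per gene and 6 passed with 20, and in Leydig cells 4 passed with Leiden clusters.

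**Figure D5:**
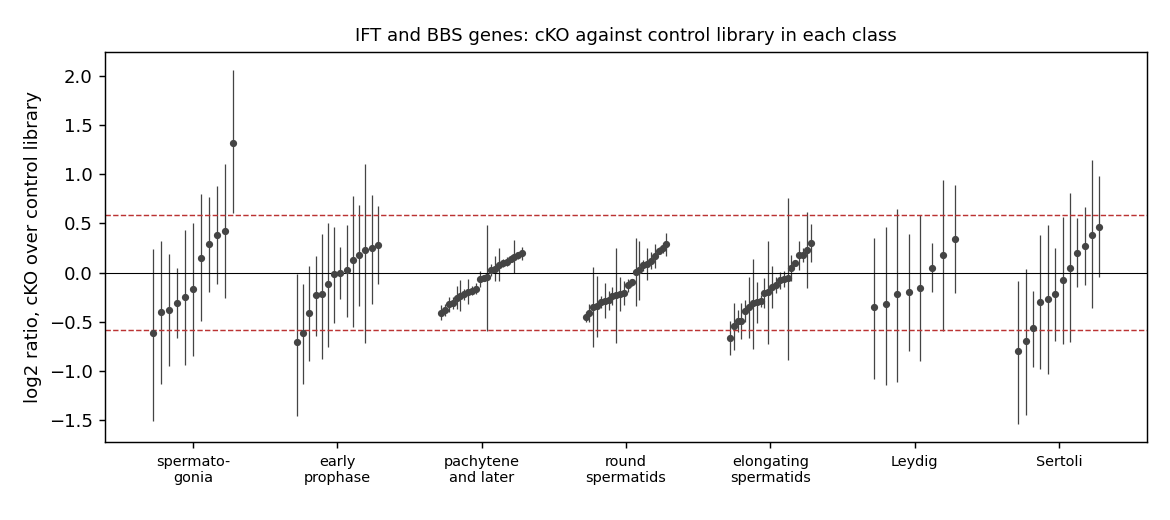
Log2 ratio of the cKO over the control library (y axis) for each member with at least 50 UMIs in a class (points, sorted within the class, with exact 95% counting intervals), in 7 classes; dashed lines mark 1.5-fold. All points of pachytene cells and round spermatids lie within the dashed lines, and the intervals are widest in the small classes.

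Of 22 members with a UMI in every class of both libraries, 4 (Bbs5, Ift74, Ift81 and Ift88) were lower in the cKO library in all 7 classes, against 10.9% of the 10808 genes with such counts. Only Ift20 was higher in all 7, against 3.28%. The intervals reached 0 in many of these classes, and the median ratio of all genes measured was itself below 0 in each class. For Ift88 the log2 ratio was -0.38 (-0.44 to -0.32) in pachytene cells, -0.41 (-0.50 to -0.32) in round spermatids and -0.67 in elongating spermatids. Free RNA and any difference between the preparations are common to all classes of a library. After free-RNA subtraction, which left the spermatid classes uncorrected, these genes kept their directions in all 7 classes. In early prophase the levels were then 390 and 377 CPM for Ift74 and 137 and 179 for Ift20 (control first). Before it Ift74 stood there at 329 and 328. Some kept directions lay near 0: Bbs5 came to 0 in cKO Leydig and Sertoli cells, and Ift81 to 3.86 and 3.21 CPM in Leydig cells. The genes were picked for 1 direction in these same data, so its keeping is a description only. The part of free RNA and of the preparations in these directions was not tested. Ift172 was lower in cKO round spermatids, at -0.45 (-0.51 to -0.40), and higher in cKO elongating spermatids, at 0.10 (0.07 to 0.12). On UMIs per cell it stood at 3.65 and 2.68 in round spermatids but at 6.58 and 6.58 in elongating spermatids (control first). For this gene the round class also held fewer protamine transcripts in the cKO library (8821 against 11799 CPM), and the part of that in the ratio was not tested.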

How the data were processed

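Single-cell counts (UMIs per gene and barcode) were deposited by the authors as unfiltered matrices, and mm10, Cell Ranger and Seurat 4.1.0 are named in the submitters' processing notes. Strand use in counting was not given in the sources used here. Barcodes with at least 3000 UMIs were kept and scored on 10 marker lists. Each marker's log level was scaled between its 25th percentile and the 90th percentile of its non-zero values, and a barcode took the class of its highest score if that was at least 0.25 and led by 0.1. These thresholds were set after marker levels and cell counts were seen, without the members' values. Scrublet marked 5.49% of control and 6.27% of cKO barcodes as doublets, which were kept in the main result and left out in an alternative. Free RNA was taken from barcodes with at most 100 UMIs. To subtract it, its profile was scaled by the class's protamine level over that in free RNA. The remainder was scaled back up to the full total, and no value was allowed to be negative. A level after subtraction is thus rescaled and can exceed the level before it. Both spermatid classes were left uncorrected.

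UMIs were summed per class and library. Genes needed 50 UMIs over the groups compared, and a gene counted as higher or lower at a step if it passed 2-fold in both libraries, or 1.5-fold between the libraries. Counts under 3 were raised to 3, without turning a direction. There is no test, since each genotype has 1 library. The counting was also run on simulated counts, with changes larger than 2-fold planted in genes above a minimum expected count. Recovery of changes near 2-fold or at few UMIs was not tested. Python 3.11.15, NumPy 2.4.6, SciPy 1.17.1, pandas 2.3.3 and Scanpy 1.11.5 were used.

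ATAC peaks are the authors' deposited lists, called per library, with a score, a fold ratio and -log10 p and q values per peak. The H3K27me3 regions carry the authors' deposited signal values. MACS2 and SEACR are named in the submitters' processing notes. An overlap of 1 base with a RefSeq window counted. This promoter and motif work was added after the files were seen. The members, lists and rules were chosen with earlier results of these data known. Germ-cell values were given in full for the 3 members of most UMIs in each role and for members past 1.5-fold in 2 or more germ-cell classes. They were also given for members whose highest class was not that of most members, but for Bbs1 and Bbs4 only in part. Of each other list the 2 genes of most UMIs were named. Bulk RNA-seq tables were not used here, since their transcript IDs are not paired with genes in the sources used here.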

Additional observations from a re-analysis of the deposited data

How the results depend on the processing

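Of 279 values recomputed under other settings, 233 stayed within their spread or within 1.5 times, 46 moved and 0 reversed a called direction. Only the summed ratio in pachytene cells and round spermatids could count as reversed, since its interval excluded 0 in no other class. Free-RNA subtraction left both spermatid classes uncorrected, so their ratios between the libraries could not move under it. UMIs per cell without scaling gave 13 of the 46. For members 2-fold higher from spermatogonia to early prophase (5), Leiden clusters gave 2, UMIs per cell 0 and free-RNA subtraction 9. From early prophase to pachytene cells, UMIs per cell gave 21 higher (5) and 0 lower (1), Leiden clusters 2 lower, and a 5000-UMI minimum and a doubled score lead 0 lower each. From round to elongating spermatids, UMIs per cell gave 0 higher (1) and 21 lower (11).

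For members past 1.5-fold between libraries, spermatogonia (2) gave 1 with a 5000-UMI minimum, 0 with Leiden clusters, 1 with cells weighted equally, 4 on UMIs per cell, 4 after free-RNA subtraction, 5 with a minimum of 20 UMIs per gene, 0 with 100 and 1 without the barcodes of both libraries. Early prophase (2) gave 0 with a 5000-UMI minimum, 0 with a doubled lead, 5 after free-RNA subtraction and 5 with 20 UMIs per gene. Pachytene cells (0) gave 1 on UMIs per cell, and round spermatids (0) 1 with cells weighted equally. Elongating spermatids (1) gave 2 with a 2000-UMI minimum, 0 with 5000, 2 without doublets, 4 with cells weighted equally and 4 on UMIs per cell. Leydig cells (0) gave 4 with Leiden clusters, 2 on UMIs per cell, 4 after free-RNA subtraction and 2 with 20 UMIs per gene. Sertoli cells (2) gave 4 with a doubled lead, 5 after free-RNA subtraction, 6 with 20 UMIs per gene, 0 with 100 and 1 with a mitochondrial share of at most 20%.

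The summed log2 ratio moved on UMIs per cell to -0.27 in spermatogonia, -0.23 in pachytene cells, -0.11 in elongating spermatids and -0.36 in Leydig cells. With Leiden clusters it moved to 0.12 in early prophase and -0.0035 in round spermatids, without the most abundant genes to 0.024 in elongating spermatids, and after free-RNA subtraction to -0.34 in Sertoli cells. On UMIs per cell the ratio includes the depth per cell, which scaling to CPM takes out. The median UMIs were lower in the cKO in each class named for that setting. They were 7202 and 5834 in spermatogonia, 18260 and 14823 in pachytene cells, 6607.5 and 6229 in elongating spermatids and 8090 and 6616.5 in Leydig cells (control first). The cause of the other moves was not tested. Leaving out each ATAC library in turn gave 14 to 16 member promoters with a peak in all remaining libraries. The mitochondrial limit, the barcodes of both libraries and the ATAC settings were chosen after seeing the data. No paired analysis was possible because each genotype has 1 single-cell library and no result comes from a test. Depth limits the classes of about 100 cells, where under 15 of the 23 members reached 50 UMIs.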

Other observations

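Longer members tended to have lower cKO over control ratios, as did longer genes at large. Spearman's rho between gene span and log2 ratio, over members with 50 UMIs, was -0.49 in pachytene cells, -0.25 in round spermatids and -0.57 in elongating spermatids (22 members each). Over all genes with a length it was -0.29, -0.23 and -0.31 in these classes. The rho of members lay between -0.19 (Leydig cells, 8 members) and -0.75 (Sertoli cells, 12 members) over the 7 classes, and that of all genes between -0.22 and -0.33. Genes of 1 library share depth and preparation, so these are descriptions without a test. Single members went both ways. Ift20 spans 5372 bases and was higher in the cKO library in 7 of 7 classes, but the shortest member, Bbs10 (3058 bases), was lower in 6. Ift88 spans 93873 bases and Ift74 89968, and both were lower in all 7, but Ift43 (79899 bases) was higher in 6 and Ift57 (65833 bases) in 5.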
